A study of Mus musculus with 13 samples.

Results

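Cytosolic ribosomal protein genes encode the protein part of the ribosome that translates nuclear mRNAs in the cytosol. They were followed in gluteal white adipose tissue (WAT), a subcutaneous depot, of male C57BL/6J mice kept at 22°C or at 29°C, which is close to thermoneutral for a mouse, from birth until 13 weeks of age. All mice had lost the hair of the posterior body to a depilatory cream after weaning and were caged singly with little bedding and no nesting material, so no group with intact fur is compared here. RNA of whole tissue was sequenced from 7 mice at 22°C and 6 mice at 29°C, and whole tissue does not tell fewer cells of a type from less RNA per cell. The members are the genes whose symbol is *Rpl* or *Rps* followed by a digit, with *Rplp0*, *Rplp1*, *Rplp2* and *Rpsa*, without the *Rps6k* kinases and the named pseudogenes, and with a mean of at least 100 counts per library. This rule gave 84 of the 34419 genes in the count table, 50 of the large subunit and 34 of the small subunit by their names.

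The large subunit joins amino acids and holds the exit tunnel of the growing chain, and the small subunit reads the mRNA. One copy of nearly every ribosomal protein is built into each ribosome, the acidic P stalk proteins being the known exception, so the mRNAs are produced in a coordinated way. Many of them start with a 5′ terminal oligopyrimidine (TOP) tract, a C followed by a run of C and T, through which mTORC1 and the RNA-binding protein LARP1 set how strongly they are translated. That control acts on translation and need not show in mRNA counts.

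Of the 84 members, 77 are here called core members, 46 of the large and 31 of the small subunit. The other 7 are 6 paralogs (*Rpl3l*, *Rpl7l1*, *Rpl22l1*, *Rpl36al*, *Rps27l* and *Rps4l*) and *Rps19bp1*, which encodes a protein that binds RPS19 and is no ribosomal protein. The members nearest the limit were *Rps19bp1* with a mean of 304 counts and *Rpl22l1* with 312. Just under it lay *Rpl39l* with a mean of 45.2 counts and *Rpl37rt* with 34.4. Of 304 rows that fit the name rule, 203 were named pseudogenes, 9 were *Rps6k* rows and 8 were under the limit. *Fau* and *Rack1* also encode ribosome components but lie outside the name rule, and they are given with a related list further on.

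The TOP tract is the sequence feature for which this gene family is known, so starts with and without it are shown. RefSeq promoter sequence (GRCm38.p6) was at hand for 63 of the 84 members. Each line gives 15 bases before and 15 bases from the annotated start, 5′ to 3′ on the gene's strand, and capitals mark a C at the start with the C or T bases that follow it, where at least 4 follow. The first group was chosen after the sequences were seen, as examples of the tract. *Rpl35a* belongs to it, and of its 3 annotated starts only the middle one is shown.
*Rpl35a* (chr16:33056467-33056496, plus strand): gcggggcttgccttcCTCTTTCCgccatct
*Rps6* (chr4:86857353-86857382, minus strand): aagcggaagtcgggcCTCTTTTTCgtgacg
*Rpl15* (chr14:18270972-18271001, minus strand): gtgggagaaagccttCTTCCTTTCCTCTgg
*Rpl35* (chr2:39005117-39005146, minus strand): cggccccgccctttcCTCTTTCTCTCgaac
*Rps18* (chr17:33955651-33955680, minus strand): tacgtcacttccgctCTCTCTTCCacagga
*Rplp2* (chr7:141447636-141447665, plus strand): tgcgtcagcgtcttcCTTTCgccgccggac

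The second group is also a selection, of highly abundant members with an entry and then of paralogs, none with the tract at the annotated base. *Rps2*, *Rpl22l1* and *Rps27l*, not printed, had the tract in the wider window given below. *Rpl7l1*, also not printed, had it in neither place. Of the annotated starts of *Rpl3l* only the first is shown.
*Rplp0* (chr5:115559452-115559481, plus strand): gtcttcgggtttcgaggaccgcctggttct
*Rpsa* (chr9:120127751-120127780, plus strand): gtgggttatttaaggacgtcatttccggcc
*Rpl4* (chr9:64173372-64173401, plus strand): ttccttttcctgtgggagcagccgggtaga
*Rpl3l* (chr17:24727811-24727840, plus strand): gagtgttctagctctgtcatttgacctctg
*Rpl36al* (chr12:69184053-69184082, minus strand): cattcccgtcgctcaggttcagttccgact

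Among the core members, 57 had an entry and 13 of these (22.8%) had the tract exactly at an annotated start, against 3.01% of all 27025 genes with an entry. When the C could lie anywhere from 5 bases before to 10 bases after the start, the numbers were 27 of 57 core members (47.4%) and 21.2% of all genes. None of the 5 paralogs with an entry had the tract at the start, and 2 of the 5 (40%) had it in the wider window. An annotated start can be some bases away from the base where most transcripts begin, and a missing match says only that the letters are not at that base. The 13 core members with the tract had a median log2 fold change between temperatures of -0.024, and the 44 without it one of -0.057.

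Levels are given as CPM, the counts of a gene relative to the library total after scaling by edgeR's TMM factors. The core members were abundant, with mean levels from 51.7 to 717 CPM per gene. *Rplp0*, the base of the P stalk, had 734 ± 41.4 CPM (SD, n = 7) at 22°C and 696 ± 59.1 CPM (n = 6) at 29°C. *Rpsa*, a small subunit protein also known as the laminin receptor, had 707 ± 45.7 CPM at 22°C and 704 ± 66.8 CPM at 29°C. These were the highest levels of each subunit, and in both genes the difference was smaller than the SD of either group. Next came *Rplp1* and *Rpl4*, with means over all mice of 539 and 499 CPM in the large subunit, and *Rps2* with 428 CPM in the small one.

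To compare genes with each other, levels were divided by transcript length. On this scale the 75 core members whose annotated transcript is at most 3000 bases had a median of 246 CPM per kb, with quartiles of 187 and 327. The highest was *Rplp1*, a P stalk protein present in more than one copy per ribosome, at 1081 CPM per kb, and the lowest was *Rpl5*, which binds 5S rRNA, at 84.0 CPM per kb, 12.9-fold lower. The small subunit genes had a median of 264 CPM per kb (29 genes) and the large subunit genes one of 236 CPM per kb (46 genes). *Rps15a* and *Rps20* were left out of these figures because their annotated principal transcripts are 5130 and 3706 bases long. The ranking depends on the transcript chosen, since longer 3′ ends lower the value of a gene whose mRNA is mostly short.

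**Figure D1:**
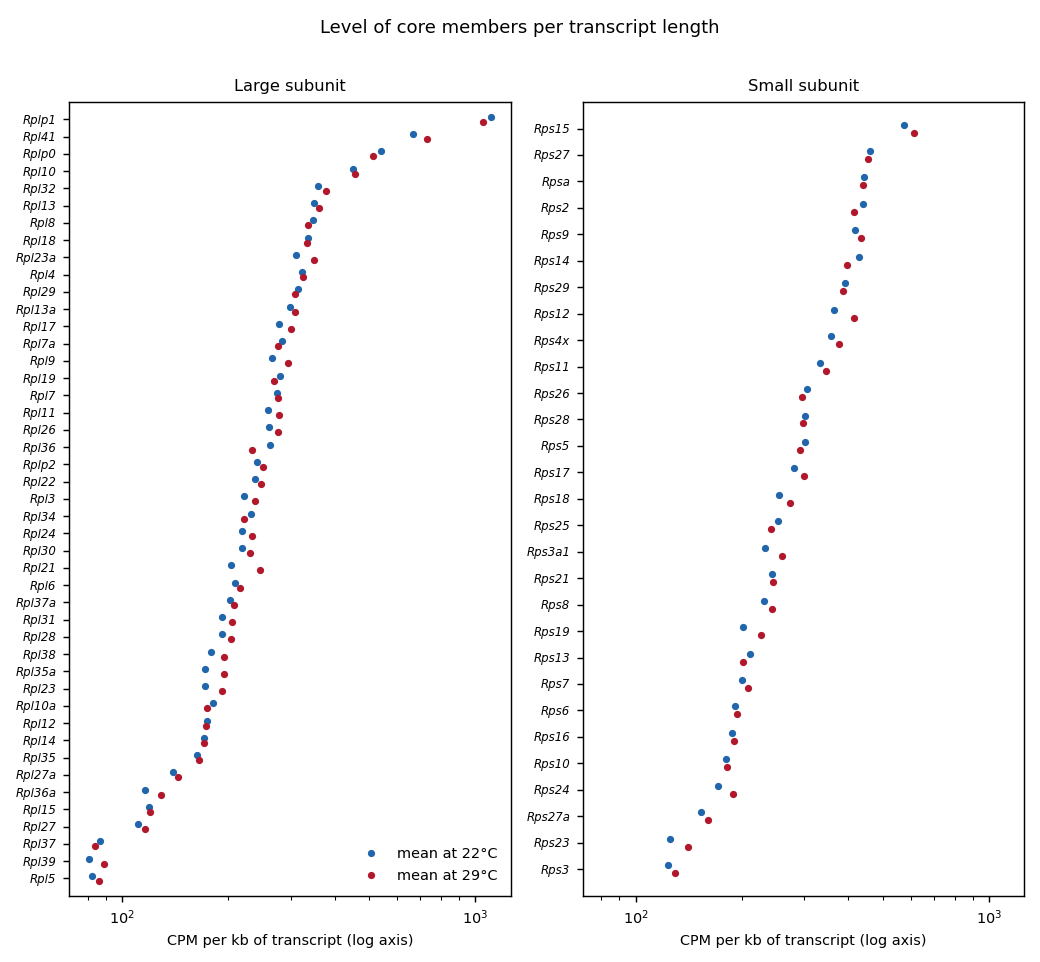
Level of core members in CPM per kb of transcript (log axis), large subunit on the left and small subunit on the right, with the mean of the 7 mice at 22°C in blue and of the 6 mice at 29°C in red. The genes span 84.0 to 1081 CPM per kb, while the means of the 2 temperatures lie close together in every gene.

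The first question was whether any of these genes differed between the temperatures. The counts were tested with edgeR's quasi-likelihood test over all 17779 genes that passed the filter on low counts, which all 84 members did. Log2 fold changes are 22°C over 29°C, and genes with an adjusted P (P-adj, Benjamini-Hochberg over all genes tested) below 0.1 were called. No member was called in either direction, while 1.94% of all genes were. At an unadjusted P below 0.05 there were 6 members (7.14%), against 18.5% of all genes. No member had groups that did not overlap in CPM, against 1.24% of all genes. DESeq2 called 1 member, *Rpl21*, as lower at 22°C, against 10.2% of the genes to which it gave an adjusted P. That tool therefore changes the count of members called from 0 to 1.

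The differences were small as well as uncalled. In 82 of 84 members (97.6%) the log2 fold change was between -0.2 and 0.2, which held for 62.4% of all genes and for 72.0% of the 3547 other genes in the same range of levels. In 83 of 84 members the whole 95% confidence interval lay between -0.5 and 0.5, the exception being *Rpl3l*. Across the 77 core members the interval bounds reached from -0.47 to 0.33. Larger differences lie outside the 95% intervals of all these genes, and the bounds are the extremes of single genes. In 5 core members, none called in the edgeR fit, the interval left out 0, and in the others it included 0. The spread between mice of the same group was also low, with a median SD of log2 CPM of 0.142 over core members, against 0.241 over all genes and 0.171 over the other genes of that level range.

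**Figure D2:**
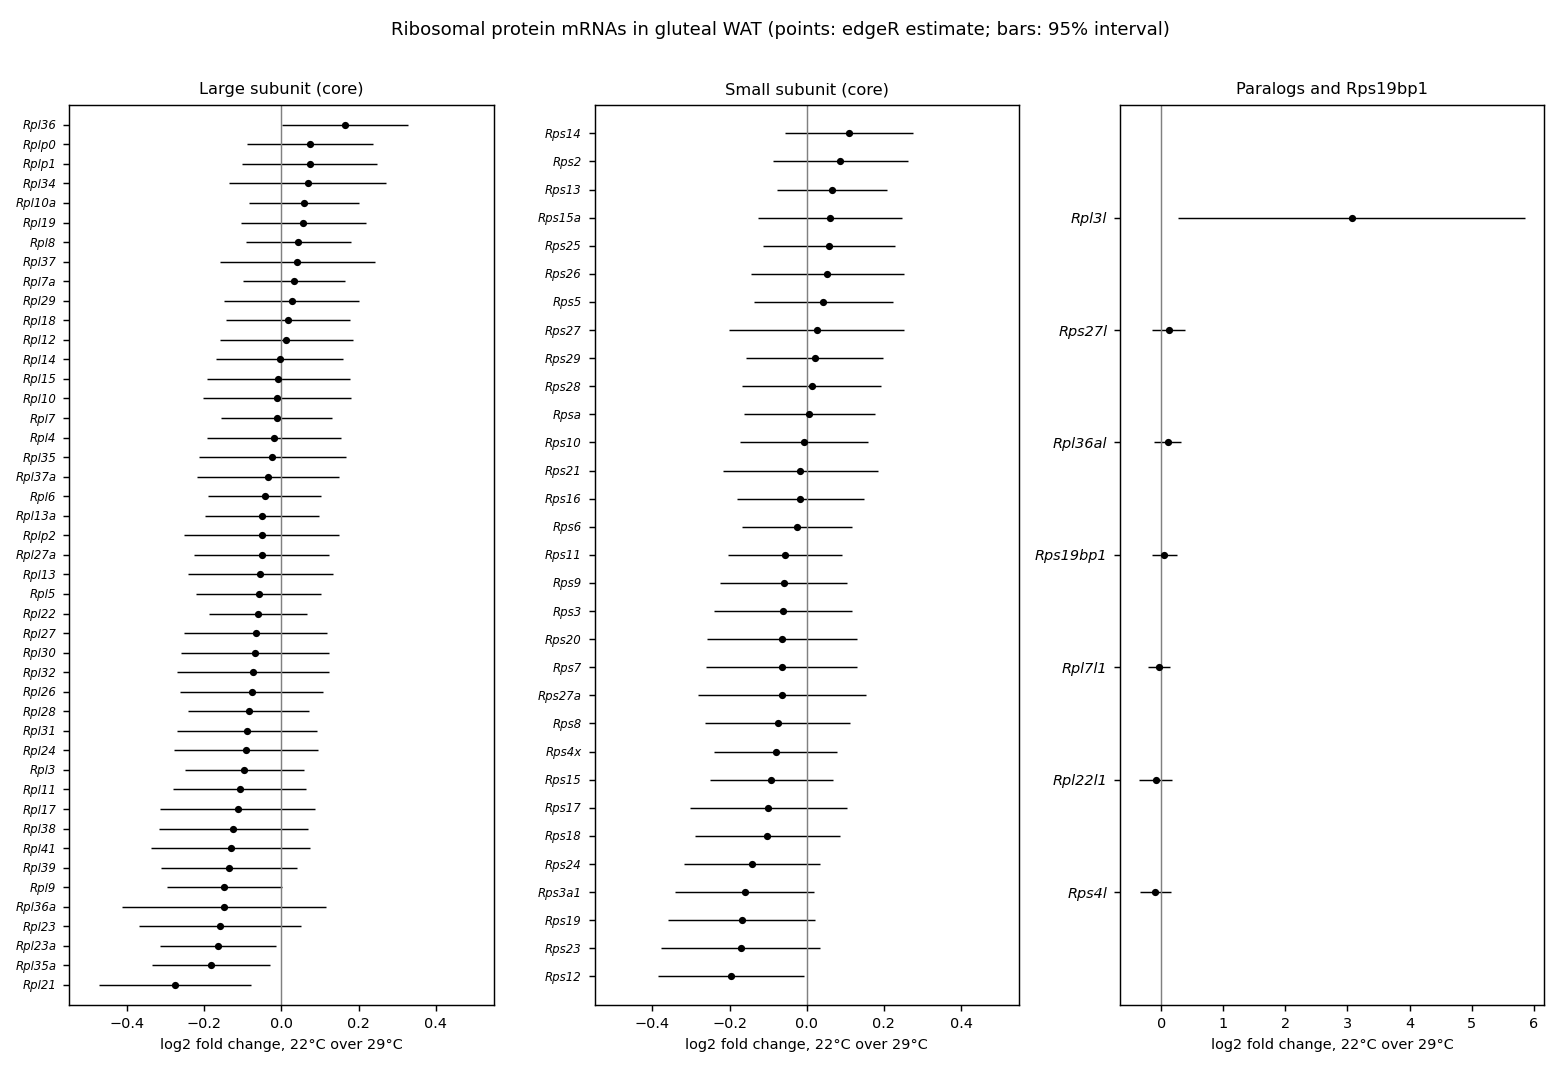
Log2 fold change (22°C over 29°C) of core large subunit genes, core small subunit genes, and the paralogs with *Rps19bp1*; points are edgeR estimates and bars are 95% confidence intervals from 7 and 6 mice, with a wider axis in the third panel. Core estimates lie between -0.28 and 0.16, and *Rpl3l* stands apart at 3.07 with an interval from 0.28 to 5.86.

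More members were lower than higher at 22°C. Of the 84 estimates 28 were positive and 56 negative, with a median of -0.051, and over all genes 51.6% were positive with a median of 0.0074. Both subunits showed this alike, with 13 of 46 core large subunit genes positive (median -0.052) and 11 of 31 core small subunit genes positive (median -0.057). The members are not independent of one another, and the split moved with single mice. Without 29°C replicate 1 the median was -0.0059 with 40 positive members, and without 22°C replicate 3 it was -0.015 with 36. Without 22°C replicate 7 it was -0.035, and without 29°C replicate 4 it was -0.025. Scaling by library totals alone gave a median of -0.10 with 16 positive members. Scaling by the summed counts of the members, which centres them by construction, gave -0.025 with 39. The totals of 5 mice, all at 22°C, were lower than those of the other 8. With this cluster as a covariate the median was -0.0076 with 39 positive members, and among the 8 mice with higher totals it was -0.016 with 35. The cluster and the temperature can be separated only through 2 mice at 22°C.

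The share of counts taken by the members varied between mice within each temperature. The members took 1.44%, 1.86%, 1.44%, 1.72%, 1.68%, 1.88% and 1.40% of all counts in replicates 1 to 7 at 22°C. At 29°C replicates 1 to 6 had 1.92%, 1.58%, 1.67%, 1.89%, 1.68% and 1.62%. The means were 1.63% ± 0.206 at 22°C and 1.73% ± 0.142 at 29°C, and the groups overlapped over most of their range. Among the 3 lowest shares were those of 22°C replicates 1 and 7, whose libraries held 6.53% and 8.84% of their counts in 20 skeletal muscle markers. The other was that of 22°C replicate 3, whose library held 0.159% in them. With these markers left out of the total, the difference between the group means was -0.059 percentage points, against -0.094 with all counts. Counts of the large subunit over those of the small subunit came to 1.47 to 1.54 at 22°C and 1.47 to 1.52 at 29°C, so the balance between the subunits hardly varied.

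The core members moved together from mouse to mouse. Each core gene was compared with its own median over the 13 mice. In 29°C replicate 1, 73 of 77 core genes were above it, and in 22°C replicate 3 none was. At 22°C the numbers for replicates 1 to 7 were 41, 70, 0, 26, 14, 67 and 7. At 29°C the numbers for replicates 1 to 6 were 73, 4, 28, 65, 28 and 39. Both high and low mice were present at each temperature. The mean log2 CPM of the core genes ranged from 7.32 to 7.65 at 22°C and from 7.41 to 7.72 at 29°C. Its SD between mice was 0.118 at 22°C and 0.108 at 29°C, and the group means differed by -0.042. When the mean of the core genes was subtracted in each mouse, the median within-group SD of core genes fell from 0.142 to 0.081. The SD became smaller in 76 of 77 genes, part of which follows from subtracting a mean that includes each gene.

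**Figure D3:**
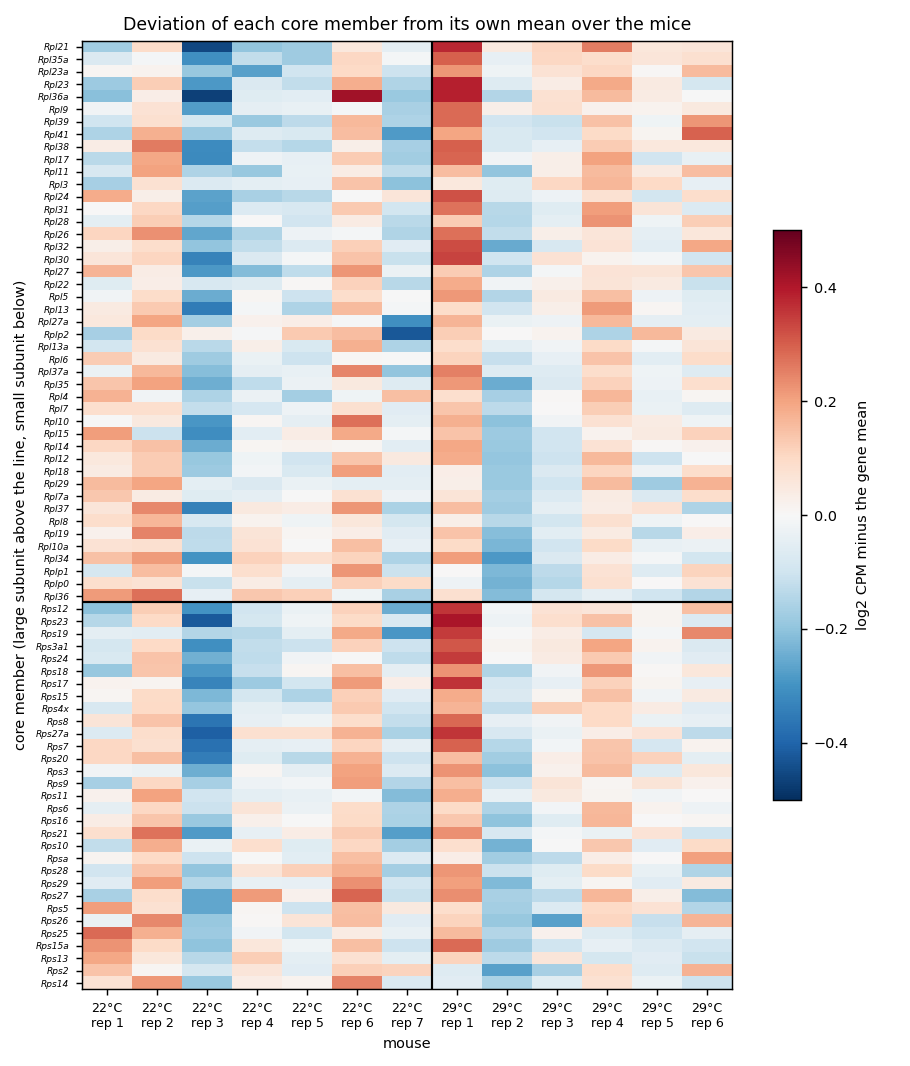
Log2 CPM of core members minus each gene's own mean over the 13 mice (colour, from -0.5 in blue to 0.5 in red), with 1 column per mouse, 22°C left of the vertical line, and genes ordered within each subunit by their log2 fold change. The column of 29°C replicate 1 is nearly all red and that of 22°C replicate 3 nearly all blue, so these mice differ across nearly all genes at once. Other columns, such as that of 22°C replicate 1, are mixed.

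Markers of other cell types also differed between these mice. Numbers are first given for 29°C replicate 1 and 22°C replicate 3, picked for the most and the fewest core genes above their own median. Of 11 macrophage markers, 10 were above their own median in 29°C replicate 1 and 2 in 22°C replicate 3. Of 8 markers of adipocyte progenitors and fibroblasts, the numbers were 5 and 0 in those mice. Of 12 mature adipocyte markers, they were 5 and 9. Of 20 skeletal muscle markers, 19 were above their own median in 29°C replicate 1 and 0 in 22°C replicate 3, and of 13 lymphocyte and lymph node markers 11 and 6. Of 6 epithelial markers the numbers were 4 and 1, and of 5 red blood cell markers 0 and 2. Of 7 endothelial markers they were 1 and 0, and of 8 markers of proliferating cells 4 and 1. Across replicates 1 to 7 at 22°C the macrophage numbers were 1, 10, 2, 8, 0, 11 and 3. At 29°C they were 10, 3, 8, 10, 0 and 0 in replicates 1 to 6. In the same order the progenitor numbers were 0, 8, 0, 6, 0, 8 and 3, then 5, 3, 1, 8, 0 and 6. The part of these cell types in the levels of ribosomal protein mRNAs was not tested. Summed over the list, the macrophage markers came to 709 to 1459 CPM in the 22°C mice and 754 to 1507 CPM in the 29°C mice, with 4 of 11 positive and none called. The sums for the progenitor markers were 4204 to 7953 CPM and 5889 to 8582 CPM, with 3 of 8 positive and none called.

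Among the large subunit genes *Rpl21*, whose protein is an integral part of the large subunit, had the smallest P. At 22°C its level had a lowest value of 145, a median of 176 and a highest of 212 CPM, and at 29°C these were 205, 210 and 258 CPM. The groups overlapped narrowly, since 2 mice at 22°C (replicates 2 and 6) reached the range of the 29°C mice. The log2 fold change was -0.28 (SE 0.092, interval -0.47 to -0.078), with an unadjusted P of 0.0099 and P-adj = 0.166 by edgeR's quasi-likelihood test. DESeq2 gave -0.28 with P-adj = 0.054. Over all alternatives it stayed negative, between -0.33 and -0.15, and P-adj ranged from 0.054 to 0.679. The value nearest 0 came when the cluster of library totals was a covariate, and among the 8 mice with higher totals it was -0.16.

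The next core large subunit genes by P were *Rpl35a* and *Rpl23a*. *Rpl35a*, one of the genes mutated in Diamond-Blackfan anaemia, an inherited failure of red cell production, carries the TOP tract printed above. Its level was 84.2 ± 7.67 CPM in the cooler and 95.5 ± 7.60 CPM in the warmer group, with a log2 fold change of -0.18 (SE 0.071, edgeR P-adj = 0.206). *Rpl23a*, whose protein sits at the exit of the tunnel, had 174 ± 15.5 and 195 ± 12.5 CPM, a log2 fold change of -0.16 (SE 0.070, edgeR P-adj = 0.236). *Rpl9*, another large subunit gene, had 196 ± 15.3 and 217 ± 16.2 CPM (log2 fold change -0.15, edgeR P-adj = 0.270).

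In the small subunit *Rps12* came first, at 179 ± 21.3 CPM in the cooler and 206 ± 20.2 CPM in the warmer group, and its log2 fold change was -0.20 (SE 0.088, edgeR P-adj = 0.255). *Rps23*, near the decoding centre, had a log2 fold change of -0.17 (SE 0.095, edgeR P-adj = 0.358). None of these genes differed beyond the adjusted threshold in the edgeR fit.

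On the other side, positive estimates among the core genes included those of *Rpl36* in the large subunit and of *Rps14* and *Rps2* in the small one. *Rpl36* had a lowest value of 84.8, a median of 103 and a highest of 115 CPM at 22°C, and 81.7, 88.9 and 100.2 CPM at 29°C. The ranges overlapped in part, but the *Rpl36* median of 103 CPM in the cooler group lay above the values of all 29°C mice. Its log2 fold change was 0.16 (SE 0.076, edgeR P-adj = 0.268), and it took the opposite sign in 2 of 29 alternatives. *Rps14*, in the platform of the small subunit, had 0.11 (SE 0.077), and *Rps2*, at the mRNA entry channel, had 0.087 (SE 0.082).

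Groups of proteins with a shared place or known role had no call either. In the P stalk, which recruits elongation factors, *Rplp0* and *Rplp1* had log2 fold changes of 0.074 and 0.073 and *Rplp2* one of -0.052. In the 5S RNP, the particle that also restrains MDM2 and so links ribosome assembly to p53, *Rpl5* had -0.059 (SE 0.075) and *Rpl11* -0.11 (SE 0.080). Of 8 proteins along the exit tunnel and its rim 7 were negative, with a median of -0.083 and intervals reaching from -0.31 to 0.22. Of 18 genes mutated in Diamond-Blackfan anaemia 13 were negative, with a median of -0.062. Over all 77 core members 53 were negative, with a median of -0.052.

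*Rpl13a* and *Rpl32* are used by the study among its reference genes for qPCR of cultured adipocytes. In gluteal WAT *Rpl13a* had 312 ± 27.0 CPM (22°C) and 323 ± 13.7 CPM (29°C), with a log2 fold change of -0.051 and an interval from -0.20 to 0.097. *Rpl32* had 186 ± 14.6 and 195 ± 28.2 CPM, a log2 fold change of -0.074 with an interval from -0.27 to 0.12. Neither was called, and the intervals include differences of either sign.

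Among the paralogs *Rpl3l* stood apart, with a within-group SD of log2 CPM of 2.86. The other paralogs had SDs from 0.152 to 0.226, within the range of the core members, which reached 0.233. *Rpl3l* encodes a form of RPL3 that is made in skeletal muscle and heart. Its raw counts at 22°C were 2551, 341, 57, 636, 40, 62 and 3253 in replicates 1 to 7. At 29°C they were 415, 6, 29, 169, 253 and 0 in replicates 1 to 6, and the count of 0 allows up to 3 counts, or 0.120 CPM before TMM scaling. The groups overlapped widely, and 22°C replicates 1 and 7 stood far above all other mice. The edgeR log2 fold change was 3.07 (SE 1.30, interval 0.28 to 5.86, unadjusted P 0.0336, P-adj = 0.231). Since it is a fitted value with a wide interval, it depends on these mice, and without both of them it was 0.77 (edgeR P-adj = 0.790).

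Skeletal muscle RNA varied in the same libraries. In the 22°C libraries the 20 muscle markers made up 0.110% to 8.84% of the counts, and in the 29°C libraries 0.0194% to 0.852%. Summed, they came to 1055 to 100618 CPM in the former and to 204 to 8246 CPM in the latter. All 20 were positive, none was called and none was at 0 in every library. *Rpl3l* followed the mean log2 level of these markers closely. Over all 13 mice Pearson's r was 0.992 and Spearman's rho 0.989, each with a permutation P of 2e-05, the smallest that 100000 resamples can give (Benjamini-Hochberg over 3 relations 6e-05). Without the 2 mice farthest from the median marker level r was 0.985. Within the 22°C group r was 0.999 (n = 7, exact permutation P = 0.00119, adjusted 0.00179) and rho 0.964 (exact permutation P = 0.00278). Within the 29°C group r was 0.983 and rho 1 (n = 6, exact permutation P = 0.00278 for both, adjusted 0.00278). With the muscle score as a covariate the temperature difference in *Rpl3l* was 0.0061 (edgeR P-adj = 0.995).

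**Figure D4:**
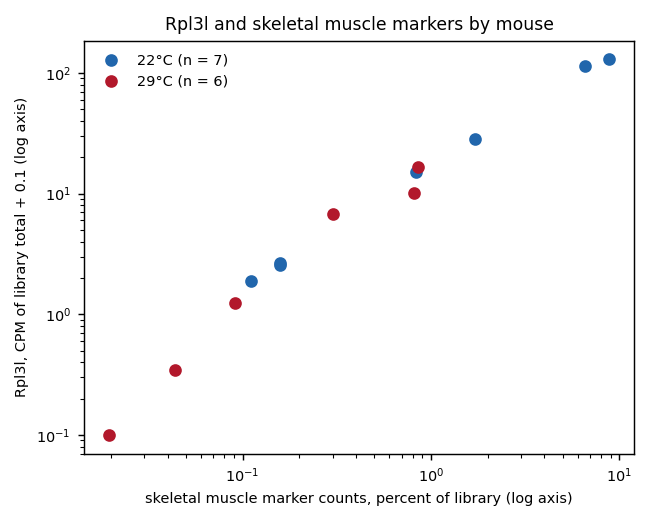
*Rpl3l* in CPM of the raw library total plus 0.1 (log axis) against the share of counts in 20 skeletal muscle markers in percent (log axis), 1 point per mouse, blue for 22°C and red for 29°C. The points of both groups lie along one line, and 22°C replicates 1 and 7 are at its upper end with 6.53% and 8.84% of counts in the markers.

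The ubiquitous *Rpl3* had its lowest levels of all mice in 22°C replicates 1 and 7, at 275 and 267 CPM, where *Rpl3l* was highest. Its level was 300.1 ± 25.8 CPM in the cooler and 321 ± 19.5 CPM in the warmer group, and its log2 fold change was -0.097 (SE 0.072, edgeR P-adj = 0.503). *Rpl3l* counts reached 54.9% of the *Rpl3* counts in the highest mouse at 22°C, with a median of 4.43%, and had a median of 1.08% and a highest value of 4.97% at 29°C. The low *Rpl3* of those mice enters these percentages too.

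For all 6 paralogs the ratio to the parent gene was compared between temperatures, which needs no scaling of libraries. Each was tested with a two-sided exact permutation test over the 1716 ways to divide the mice, adjusted over the 6 pairs. The smallest P was that of *Rpl36al*, an autosomal paralog of the X-linked *Rpl36a*. Relative to *Rpl36a* it had 53.8% to 85.0% of the counts at 22°C (median 65.1%) and 50.4% to 60.9% at 29°C (median 54.1%). The mean log2 ratio was 0.26 higher at 22°C (exact permutation P = 0.0198, adjusted 0.119), which did not pass the threshold. The highest ratios were again those of 22°C replicates 1 and 7, the mice with the most muscle RNA, and without both the difference was 0.16 (adjusted exact permutation P = 0.442). The part of muscle RNA in this ratio was not tested further. The genes of this pair share much sequence, so how reads were divided between them is uncertain.

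*Rpl3l* over *Rpl3* had the largest difference of the 6 ratios, 3.42 on the log2 scale, with an SD of 2.81 at 22°C and 3.62 at 29°C (exact permutation P = 0.0874, adjusted 0.262). The other 4 ratios differed little. *Rps27l*, a p53 target, was at a median of 14.8% of *Rps27* at 22°C and 14.7% at 29°C. *Rpl7l1* was at 14.8% and 13.9% of *Rpl7*, *Rpl22l1* at 10.8% and 11.0% of *Rpl22*, and *Rps4l* at 7.89% and 8.53% of *Rps4x*. No coding transcript was found for *Rps4l* in the annotation used for lengths, so whether its counts stand for a protein-coding paralog is uncertain. For these 4 pairs the exact permutation P lay between 0.538 and 0.880, and the SD between mice, from 0.121 to 0.324 on the log2 scale, was larger than each difference. *Rps19bp1* had 12.8 ± 1.25 CPM at 22°C and 12.3 ± 1.49 CPM at 29°C (log2 fold change 0.052, SE 0.095).

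**Figure D5:**
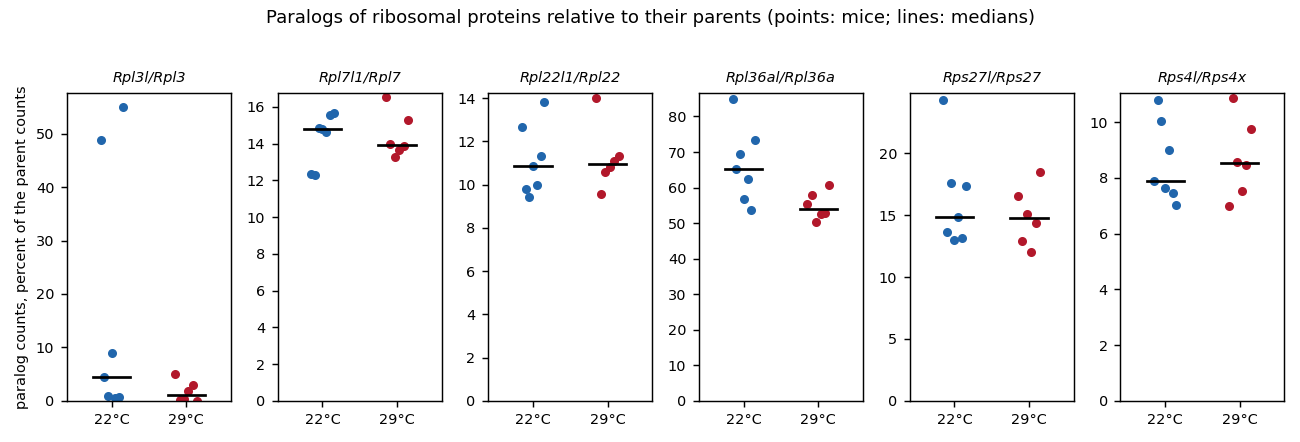
Counts of each paralog as a percent of its parent gene's counts, 1 panel per pair with its own axis starting at 0, 1 point per mouse (7 at 22°C in blue, 6 at 29°C in red) and a line at the group median. The groups overlap in every panel, and *Rpl36al* has medians of 65.1% and 54.1%.

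Below the limit of 100 counts, *Rpl39l*, a paralog of the exit tunnel protein gene *Rpl39*, had 7, 57, 11, 47, 42, 34 and 29 counts in the 22°C mice and 62, 78, 57, 56, 63 and 44 in the 29°C mice. *Rpl37rt* had 20 to 38 counts at 22°C and 27 to 50 at 29°C. Both are given without a test, as rows outside the rule. The 203 named pseudogene rows, whose sequences resemble those of the members, held 16944 counts in all, 0.322% of the 5264817 member counts, and 81 of them had a mean under 1 count. The most counted was *Rps16-ps2* with a mean of 104 counts. Of the 37 that passed the filter 2 were called lower at 22°C by edgeR, *Rps6-ps4* (log2 fold change -0.71, SE 0.17, P-adj = 0.0854) and *Rpl14-ps1* (-0.53, SE 0.14, P-adj = 0.0994), while 1.21% of all genes tested were called lower. Of the 37 estimates 31 were negative and 6 positive. In proportion to member counts the pseudogene rows came to 0.273% to 0.294% in the 5 mice with lower library totals, all at 22°C, and to 0.315% to 0.368% in the other 8, of which 22°C replicates 6 and 7 had 0.318% and 0.326%. The cluster of totals and the temperature can therefore be separated only through those 2 mice, and the part of the cluster in the pseudogene counts was not tested.

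Genes that act with the ribosome were read from 5 lists. Of 24 other TOP mRNAs and ribosome-bound factors 12 were positive and 12 negative, none was called, and the median was -0.0066. The smallest P belonged to *Nap1l1*, a histone chaperone, at 215 ± 43.3 CPM in the cooler and 299.6 ± 29.9 CPM in the warmer group (log2 fold change -0.48, SE 0.13, edgeR P-adj = 0.106). *Vim*, the intermediate filament vimentin, followed at -0.32 (SE 0.099, edgeR P-adj = 0.141). The ribosome components *Fau* and *Rack1*, in the same list, had -0.060 and 0.073.

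Of 38 ribosome biogenesis genes 13 were positive, none was called, and the median was -0.036, with *Utp20* of the small subunit processome at -0.31 (SE 0.11, edgeR P-adj = 0.182). *Nop16* had -0.14 and *Nhp2*, a protein of box H/ACA particles, 0.22. Of 31 initiation and elongation factors 17 were positive, none was called, and the median was 0.018. *Eif1*, which guards start codon choice, had 265 ± 22.6 CPM at 22°C and 230.2 ± 10.8 CPM at 29°C (log2 fold change 0.20, SE 0.067, edgeR P-adj = 0.163), while *Eif4a2* had -0.18 and *Eif3a* -0.14. In the list of ribosome rescue and quality control 13 of 14 genes were measured, 5 were positive, none was called, and the median was -0.024. Its smallest P values were those of *Ascc2* and *Ascc3*, parts of the complex that takes collided ribosomes apart, at -0.23 (edgeR P-adj = 0.117) and -0.22 (edgeR P-adj = 0.167), followed by *Habp4* at 0.13. DESeq2 called 2, 1, 1 and 2 genes in these 4 lists, against 10.2% of all genes to which it gave an adjusted P.

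Of 26 genes of mTORC1 and TOP mRNA control 17 were positive, with a median of 0.020, and 1 was called, against 1.94% of all genes. *Sesn1*, which encodes a stress-induced inhibitor of mTORC1, was lower at 22°C, with 31.6 ± 1.75 CPM against 40.4 ± 5.05 CPM at 29°C (log2 fold change -0.35, SE 0.078, edgeR P-adj = 0.0714). The groups overlapped, with a highest value of 34.0 CPM at 22°C and a lowest of 31.7 CPM at 29°C. The call was lost on leaving out single mice, each of 22°C replicates 4, 5 and 7 and 29°C replicates 1 to 5. *Rheb*, the GTPase that activates mTORC1, had -0.19 (edgeR P-adj = 0.187) and *Nprl3* 0.13 (edgeR P-adj = 0.266).

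Mitochondrial ribosomal proteins belong to a separate ribosome inside mitochondria. Of 78 such genes tested 53 were positive, none was called, and the median was 0.055. The number above their own median was 37 of 78 in 22°C replicate 3 and 59 of 78 in 29°C replicate 1, and no test of a difference from the cytosolic set was made.

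The libraries held 22356637 to 25245785 counts, and no pair agreed within sampling noise (lowest chi-square per gene 18.3 over 78 pairs). The label of the tissue was borne out by mature adipocyte markers, which summed to 35078 to 51648 CPM at 22°C and 40450 to 52454 CPM at 29°C, with 4 of 12 positive and *Lep* called lower. Of 13 tested lymphocyte and lymph node markers 12 were positive and 1, *Cd3e*, was called, with sums of 171 to 313 CPM at 22°C and 79.6 to 742 CPM at 29°C. Over all genes 1.94% were called in either direction. Endothelial markers (1 of 7 positive), red blood cell markers (0 of 5) and markers of proliferating cells (0 of 8) had no call. Epithelial markers (1 of 6 positive) had no call either and summed to at most 331 CPM. The part of these other cells in the members' values was not tested. In the fits with a lymphocyte or muscle covariate 0 members were called. The same count came without a covariate, so it does not show whether these cells have a part. The median over members was -0.062 with 24 positive under the lymphocyte covariate and -0.059 with 25 under the muscle covariate. Without a covariate it was -0.051 with 28 positive.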

How the data were processed

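RNA of gluteal WAT from 13 separate mice was sequenced and grouped by the housing temperature in the labels. The authors aligned reads with STAR 2.7.5a, after FastQC, counted them with featureCounts and deposited raw counts per gene, and also regularized log2 values made with DESeq2, which were used only as an alternative. The submitters' processing notes name GRCm39, while the study's text names mm10 for cultured cells. Annotation release, strand setting and the treatment of reads that map more than once are not given in the sources used here, so near-identical paralogs, pseudogenes and overlapping genes are uncertain. Gene symbols were matched by Ensembl identifier without version (34006 of 34419). Start sequences are from RefSeq on GRCm38.p6, and lengths are those of the shortest principal coding transcript in GENCODE M21.

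Counts were fitted with edgeR 4.0.16 in R 4.3.3 (TMM, filterByExpr, glmQLFit and glmQLFTest, no covariate, P-adj below 0.1). Standard errors were taken from each estimate and the root of its F statistic. CPM on the log2 scale used a prior count of 2, and paralog ratios added 0.5 to each count. DESeq2 1.42.0, limma 3.58.1 and scipy 1.17.1 served for alternatives and permutation tests. The fits were tested on simulated data. The limit set by a count of 0 covers counting error only, and 95% intervals of fold changes come from the edgeR fit over mice.

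The members and lists were chosen with earlier results of these data known. Genes were named by rule: members called, the 5 smallest P in each direction, the 5 largest changes, the 3 most abundant of each subunit, P stalk, 5S RNP, *Rpl13a* and *Rpl32*, paralogs with parents, 2 members inside and 2 rows outside the limit, and the genes called or with the 3 smallest P in each pathway list. Lists are described by counts and medians, with no test of a list. Values of 2 genes named by these rules are not reported here, and the figures leave them out, while counts and medians over members and lists include them.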

Additional observations from a re-analysis of the deposited data

Results flagged for a closer look

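Values of the 32 named members, the 6 paralog ratios and 3 library-wide measures were examined in 82 groups. The rule looked for a single mouse far from the others of its group. Of the 82 groups 4 met Dixon's criterion, near the share of about 1 in 20 that chance alone flags. The flags of *Rps27l* and of its ratio to *Rps27* come from the same mouse and share the *Rps27l* counts. *Rpl9* was at 249.7 CPM in 29°C replicate 1, with the next mouse at 217.2. In the same mouse *Rpl22l1* was at 18.29 CPM, with the next at 13.15, and this is the mouse in which 73 of 77 core members were above their own median. *Rps27l* was at 34.05 CPM in 22°C replicate 1, with the next mouse at 25.31, and its counts were 24.29% of the *Rps27* counts there, with the next at 17.62%. That library held 6.53% of its counts in skeletal muscle markers. The library of 22°C replicate 7 held 8.84%, with *Rps27l* at 25.24 CPM and at 17.4% of the *Rps27* counts. The part of muscle RNA in *Rps27l* was not tested.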

How the results depend on the processing

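No member was called in any of 28 alternatives run with edgeR or limma, nor at P-adj below 0.05, and DESeq2 called 1, *Rpl21*. The median over members stayed negative throughout, between -0.10 (library totals only, where 16 members were positive) and -0.0059, and over single mice left out between -0.074 and -0.0059 with 21 to 40 positive. The share of counts differed by -0.135 to -0.0546 percentage points on leaving out single mice (-0.0939 with all). Of 32 named members 20 kept their sign in every alternative, and the other 12 had log2 fold changes of at most 0.16 in size. The log2 ratio of *Rpl36al* to *Rpl36a* lay between 0.20 and 0.31 over single mice left out, past the threshold without 22°C replicate 4 (adjusted exact permutation P = 0.0909), 22°C replicate 6 (0.039) or 29°C replicate 6 (0.0909). Scaling by member counts, leaving out both mice with the most muscle RNA, and replicates 1 to 6 without a block were chosen after the data were seen.

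Of the lists, the other TOP mRNAs had 0 calls with edgeR, 2 with DESeq2 and 1 with limma, with the lymphocyte covariate or without the muscle markers (0 to 1 over single mice left out). Ribosome biogenesis had 1 with DESeq2, library totals or without both muscle-rich mice. Translation factors had 1 with DESeq2, which called 10.2% of all genes to which it gave an adjusted P. Rescue factors had 2 with DESeq2 or without both muscle-rich mice and 1 with library totals or replicates 1 to 6 (0 to 1 over single mice). The single call in mTORC1 control became 0 with library totals, member scaling, no filter, the cluster or lymphocyte covariate, the higher totals alone, or replicates 1 to 6 with or without the block (0 to 1 over single mice).

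Replicate numbers 1 to 6 occur at both temperatures. Deviations of same-numbered mice correlated at 0.051 to 0.51, and 7 of 12 mice correlated best with their own number, a hint from the data and not the design. With the replicate block 0 members were called, with a median of -0.036 and 33 positive, against -0.035 and 33 without the block in the same mice. The causes of these shifts were not tested. With 6 and 7 mice, 6 members had an unadjusted P below 0.05 and so a 95% interval that leaves out 0, and none passed the adjusted threshold in edgeR.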
